A study of Mus musculus with 15 samples.

Results

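The DNA replication and S phase genes are the genes whose products copy the chromosomes: the replicative helicase and the factors that load it, the polymerases, the sliding clamp and its loader, nucleotide supply, strand processing, chromatin assembly and the regulators of entry into S phase. They were chosen by function, with earlier results of these data known, as a list of 47 mouse gene symbols. Shares of these genes set beside all tested probe sets are therefore a description, not independent support. Each gene was read from the probe set with that 1 symbol in the platform annotation that had the highest mean log2 signal. The array held 45 of the 47, among 8251 genes with such a probe set, and 40 of the 45 passed the filter on mean signal and were tested. Pole had no such probe set, and Tyms was found only in probe sets with several symbols.

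RNA came from the mouse calvarial line MC3T3, clone 1b, whose cells are osteoblast precursors. Each of 5 groups held 3 single-colour arrays. At day 1 and at day 3, cultures had beta-glycerol phosphate (GP, a phosphate source used in mineralisation assays) together with ascorbic acid (AA, a cofactor of collagen maturation) and bone morphogenetic protein 2 (BMP-2, a bone-inducing growth factor), or GP alone, and a further group had control medium at day 0. AA and BMP-2 were always added together, and medium and time changed together after day 0, so neither can be told apart from its partner. All groups are the same clonal line, and the preparation number in the labels, 1 to 3, is the replicate number here. The labels do not state that these preparations were grown apart, and the spread behind the p-values is therefore the spread over 3 preparations, possibly a technical one.

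Replication is prepared in G1, when the origin recognition complex, Cdc6 and Cdt1 load the ring of Mcm2 to Mcm7 onto DNA. At the start of S phase the kinase Cdc7 and cyclin E with its kinase switch this ring, with Cdc45, into a working helicase, and the primase, polymerases, clamp and ligase then build the new strands. Transcription of many of these genes peaks from late G1 into S phase under the E2F factors, which the retinoblastoma protein holds in check. In bone, precursors divide before they mature, and maturing osteoblasts leave the cycle. In bulk RNA such as this, fewer cells in S phase and less RNA per cell cannot be told apart.

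The deposited arrays had a median intensity of 38.6 to 50.8 units. Of their values, 7.29 to 14.3 percent lay at or below the floor of 2.8 units. The first principal component, 32.7 percent of the variance of the tested probe sets, separated the 5 replicate 3 arrays (−39.7 to −25.3) from the other 10 (1.55 to 25.6). All 15 arrays matched best, by their deviations from group means, to an array of their own replicate number, so values from a fit with the replicate as a block are printed where they change a call. The 3′ to 5′ signal ratio of actin was 2.11 in GP day 3 replicate 3 and 1.00 to 1.34 in the other 14 arrays. Of 9 osteoblast and mesenchyme markers 8 were above the signal filter (Vim, which had a dim probe set, was not). Of the markers of other cell types, 0 of 6 endothelial, 2 of 7 macrophage (Csf1r and Cd14), 3 of 6 skeletal muscle, 1 of 4 adipocyte, 1 of 6 epithelial and 3 of 6 neural genes were above it. The summed level of each of these 6 lists overlapped between treatments at day 1 and at day 3.

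At day 3 the replication genes were higher in GP/AA/BMP-2 cultures than in GP cultures as a group, with a median log2 difference of 0.68 over the 40 tested genes, against −0.00043 over all 7453 tested probe sets. In limma with Benjamini-Hochberg adjustment over all tested probe sets at 0.05, 10 genes passed, all of them higher: 6 of the helicase and its loaders, and 1 each of the polymerases, the clamp loader, nucleotide supply and flap removal. The background was 2.03 percent of all tested probe sets called higher and 2.08 percent called lower. With the replicate as a block, 23 of the 40 were called higher and 0 lower, against 6.84 percent of all tested probe sets called higher and 6.99 percent lower. At day 1 the difference was positive for 38 of 40 genes, but its median was 0.37. By limma 0 genes passed at day 1 in either direction (background 0.295 percent higher and 0.631 percent lower). An unadjusted limma p under 0.05 was reached there by 14 genes (background 11.3 percent in either direction). Without replicate 3 of every group the day 1 median was 0.21 and the day 3 median 0.65. With the block 5 passed at day 1, all higher (background 2.07 percent).

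**Figure D1:**
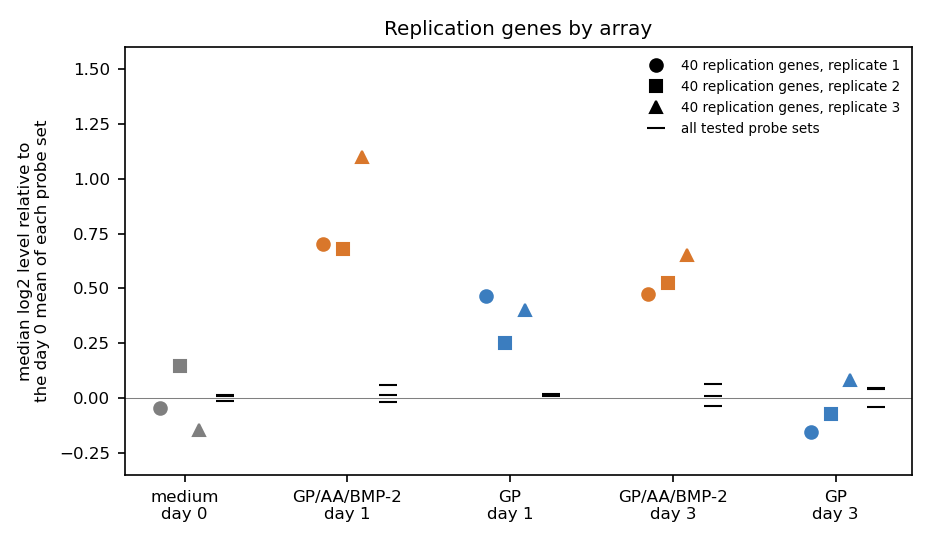
Median log2 level of the 40 tested replication genes in each of the 15 arrays, relative to each gene's day 0 mean (circles, squares and triangles are replicates 1, 2 and 3; short dashes are the median of all tested probe sets). The GP/AA/BMP-2 arrays lie at 0.68 to 1.10 at day 1 and 0.48 to 0.65 at day 3, above the GP arrays of the same day, at 0.25 to 0.46 and −0.16 to 0.082.

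Summarised array by array, relative to each gene's day 0 mean on the log2 scale, the median replication gene stood at 0.70, 0.68 and 1.10 in GP/AA/BMP-2 arrays at day 1, against 0.46, 0.25 and 0.40 in GP arrays. At day 3 the medians were 0.48, 0.52 and 0.65 in GP/AA/BMP-2 arrays, against −0.16, −0.072 and 0.082 in GP arrays. The 3 day 0 arrays themselves lay between −0.14 and 0.15. The plot of these medians shows no overlap between the treatments at either day, and the GP arrays at day 3 in or close to the day 0 range. The median of all tested probe sets stayed between −0.039 and 0.066 in the 15 arrays. Within a replicate, the median of the 40 differences between treatments at day 3 was 0.67, 0.64 and 0.76, so the size was similar in all 3. At day 1 it was 0.24, 0.25 and 0.67, largest in replicate 3.

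The helicase and its loaders gave 6 of the 10 calls at day 3. Of their 13 tested genes 6 rose (background 2.03 percent) and 11 passed with the block (background 6.84 percent higher). Here and below, a gene that rose was called higher in GP/AA/BMP-2 than in GP cultures of the same day, not higher over time. The median log2 difference was 0.90. For 12 of the 13, all but Cdc7, every treated array at day 3 was above every GP array (background 10.5 percent). Mcm4, a subunit of the hexameric ring, read 461, 355 and 561 intensity units in GP/AA/BMP-2 arrays, against 189, 199 and 196 units in GP arrays. All 3 treated arrays were above all 3 GP arrays, which lay close together, and the difference was 2.32-fold (log2 1.21 ± 0.25 SE, limma adjusted p = 0.0157). Mcm2, another subunit of the ring and a histone binder, had 344, 364 and 423 units in GP/AA/BMP-2 arrays, against 139.7, 186 and 236 units in GP arrays. Its groups did not overlap, replicate 3 was the highest array in both, and the difference was 2.05-fold (log2 1.04 ± 0.23, limma adjusted p = 0.0256).

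Mcm5, which forms the gate of the ring with Mcm2, had 586, 794 and 746 units in GP/AA/BMP-2 arrays at day 3, against 405, 378 and 430.0 units in GP arrays. Its lowest treated array, replicate 1, was still above every GP array, and it passed the test narrowly (log2 0.80 ± 0.21, limma adjusted p = 0.0497). Mcm7, a subunit of the catalytic core, had 331, 405 and 358 units in GP/AA/BMP-2 arrays, against 219, 260.3 and 208 units in GP arrays. Here too the groups were apart and the call was narrow (log2 0.67 ± 0.18, limma adjusted p = 0.0490). Mcm3, whose probe set carries a suffix for shared sequence, had a log2 difference of 0.95 and passed only with the block (limma adjusted p = 0.0795 without it and 0.0133 with it). Mcm10, which links the helicase to polymerase alpha, had 1.05 and likewise passed only with the block (0.0959 and 0.0340). Mcm10 was a dim gene, and with the floor raised to the 50th percentile of the intensities its difference was 0.060 (limma adjusted p = 0.882). Of the 6 ring subunits, the sixth, Mcm6, was too dim to test.

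Cdt1, the factor that brings the ring to the origin, had 412, 458 and 446 units in GP/AA/BMP-2 arrays at day 3, against 213, 245 and 213 units in GP arrays. Both groups were tight, every replicate showed a log2 difference close to the mean (0.95, 0.90 and 1.07), and the fit gave 0.97 ± 0.18 (limma adjusted p = 0.00933). Cdc45, part of the active helicase, had 133, 109 and 164 units in GP/AA/BMP-2 arrays, against 84.9, 69.5 and 62.4 units in GP arrays. The groups did not overlap, and within replicates the difference was 0.65, 0.65 and 1.39, largest in replicate 3, which had the highest treated and the lowest GP array (log2 0.90 ± 0.21, limma adjusted p = 0.0319). Cdc6, the loader that works beside Cdt1, had a log2 difference of 0.85, and Orc6 and Orc2, subunits of the origin recognition complex, had 0.55 and 1.02. These 3 passed only with the block (limma adjusted p = 0.0258, 0.0386 and 0.0312), and with the floor at the 50th percentile Orc2 had 0.16 (0.455). Gmnn, the inhibitor of Cdt1, had 0.72 and passed in neither fit, and neither did Cdc7 at 0.38.

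**Figure D2:**
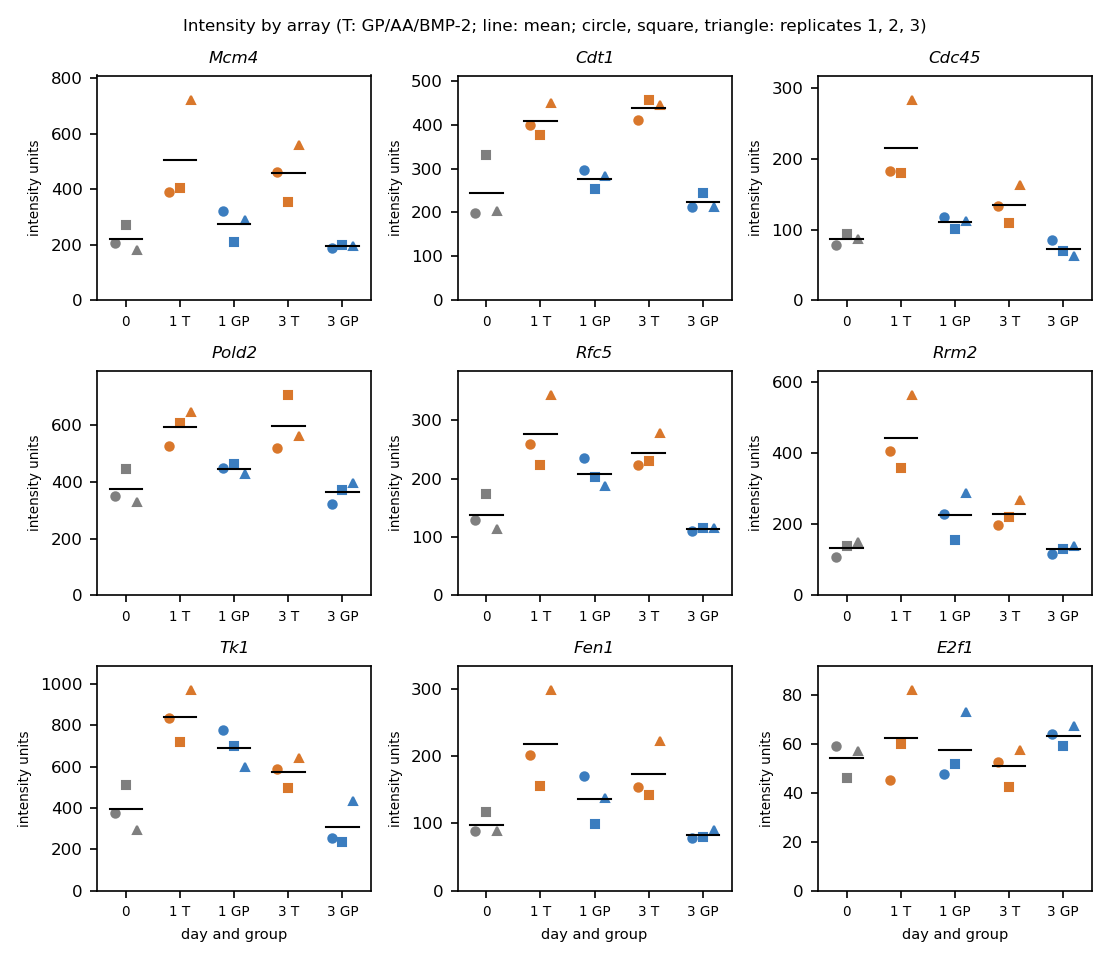
Intensity of 9 replication genes in every array, in units as deposited, from day 0 on the left to day 3 on the right, with GP/AA/BMP-2 (T, orange) left of GP (blue) at each day (lines are means of 3 arrays; circles, squares and triangles are replicates 1, 2 and 3). At day 3 the orange points lie above the blue ones in each panel except E2f1, where they lie below.

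Among the 6 tested polymerase and primase genes the median log2 difference at day 3 was 0.61. Of the 6, 1 rose (background 2.03 percent) and 3 passed with the block (background 6.84 percent higher). Pold2, the accessory subunit of polymerase delta, had 521, 707 and 562 units in GP/AA/BMP-2 arrays, against 323, 372 and 395 units in GP arrays. Its groups were apart, with replicate 2 the highest treated array (log2 0.71 ± 0.16, limma adjusted p = 0.0231). The only probe set of Pold2 carries a suffix for relaxed probe design, so other transcripts may contribute to its signal. Prim1, the catalytic primase subunit that lays the RNA primer, had 75.2, 48.5 and 71.7 units in GP/AA/BMP-2 arrays, against 38.9, 24.3 and 44.5 units in GP arrays. The treated replicate 2 array stood only slightly above the highest GP array, and the difference of 0.88 ± 0.27 passed only with the block (limma adjusted p = 0.0848 without it and 0.0156 with it). With the floor at the 50th percentile the difference was 0.49 (limma adjusted p = 0.109). The catalytic subunit of polymerase alpha, Pola1, had 0.71 and also passed only with the block (0.0258). Pola2, its second subunit, had 0.52, Prim2, the large primase subunit, 0.25, and Pold1, the catalytic subunit of polymerase delta, −0.13, and these 3 passed in neither fit. The difference of Pold1 was thus on the other side of 0 from that of its partner Pold2, and the difference between the 2 subunits was not tested.

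For the clamp, its loader and the single-strand binding proteins, the median log2 difference at day 3 was 0.54. Of the 9 tested genes 1 rose (background 2.03 percent) and 4 passed with the block (background 6.84 percent higher). Rfc5, a small subunit of the clamp loader, had the smallest adjusted p of all 40 genes, with 224, 230.1 and 279 units in GP/AA/BMP-2 arrays, against 111, 115 and 115 units in GP arrays. The GP arrays lay within a few units of one another and every treated array was far above them (log2 1.10 ± 0.19, limma adjusted p = 0.00709). Averaged with its dim second probe set, Rfc5 had 0.45 and did not pass (limma adjusted p = 0.550). Rfc4, its neighbour in the loader, had 65.5, 59.0 and 96.7 units in GP/AA/BMP-2 arrays, against 29.0, 33.1 and 51.5 units in GP arrays. Replicate 3 was highest in both groups, within replicates the difference was 1.18, 0.83 and 0.91, and the test passed only with the block (0.97 ± 0.28, limma adjusted p = 0.0735 without it and 0.00680 with it). With the floor at the 50th percentile it was 0.60 (limma adjusted p = 0.119). Pcna, the sliding clamp itself, had 1077, 955 and 1278 units in GP/AA/BMP-2 arrays, against 628, 575 and 878 units in GP arrays. Its groups did not overlap and its difference of 0.68 ± 0.19 was just outside the threshold (limma adjusted p = 0.0569, or 0.00321 with the block).

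The 3 single-strand binding subunits had log2 differences of 0.59 for Rpa1, 0.54 for Rpa2 and 0.19 for Rpa3, of which Rpa1 passed with the block (limma adjusted p = 0.0222). Of the other loader subunits, Rfc2 had 0.40, Rfc3 0.24 and Rfc1, the large subunit, 0.0071, and these 3 passed in neither fit. The loader's subunits thus spanned the range from the gene with the smallest adjusted p of the 40 to a gene with a difference near 0.

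In nucleotide supply, 1 of 3 tested genes rose (background 2.03 percent) and 2 passed with the block (background 6.84 percent higher). The median was 0.81. Tk1, the thymidine kinase of dividing cells, had 588, 496 and 643 units in GP/AA/BMP-2 arrays at day 3, against 255, 235 and 433 units in GP arrays. The GP replicate 3 array was well above the other GP arrays, so that the within-replicate difference was 1.20, 1.08 and 0.57, and the fit gave 0.95 ± 0.24 (limma adjusted p = 0.0427). That array is also the one with the high actin ratio. Rrm2, the S phase subunit of ribonucleotide reductase, had 198, 221 and 268 units in GP/AA/BMP-2 arrays, against 117, 132 and 140.0 units in GP arrays. The groups were apart in each replicate to a similar extent and the difference of 0.81 ± 0.23 passed only with the block (limma adjusted p = 0.0691 without it and 0.00604 with it). Rrm1, the large subunit of the same enzyme, had 0.50 and passed in neither fit.

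Of the genes that finish the lagging strand and remove uracil, Fen1, the flap endonuclease, had 155, 142 and 222 units in GP/AA/BMP-2 arrays at day 3, against 78.5, 79.8 and 89.6 units in GP arrays. It was 2.05-fold higher in the GP/AA/BMP-2 arrays, with no overlap (log2 1.04 ± 0.26, limma adjusted p = 0.0401). Lig1, the ligase that seals the fragments, had 127, 136 and 172 units in GP/AA/BMP-2 arrays, against 127, 118 and 95.1 units in GP arrays. Those groups overlapped, replicate 1 had the same value in both, and the difference did not pass (log2 0.35 ± 0.24, limma adjusted p = 0.534). Ung, which removes uracil from DNA, had −0.034 and did not pass.

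Of the 4 tested genes of chromatin assembly, methylation copying and histone mRNA 0 passed at day 3 by limma, with a median of 0.59. Of these 4, 3 had an unadjusted p under 0.05 (background 16.7 percent) and 2 passed with the block (background 6.84 percent higher). Uhrf1, which brings the maintenance methyltransferase to newly copied DNA, had 461, 487 and 622 units in GP/AA/BMP-2 arrays, against 325, 257 and 334 units in GP arrays. Chaf1a, the large subunit of the histone chaperone CAF-1, had 102, 121 and 100.2 units in GP/AA/BMP-2 arrays, against 77.0, 73.3 and 52.8 units in GP arrays. Both genes had all treated arrays above all GP arrays and passed only with the block: Uhrf1 at 0.78 ± 0.23 (limma adjusted p = 0.0121) and Chaf1a at 0.69 ± 0.23 (0.0104). Chaf1b, its partner in CAF-1, had 0.50, and Slbp, the histone mRNA stem-loop binder, 0.039, and neither passed in either fit.

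Of the 2 tested regulators of S phase entry, 0 passed in either fit or had an unadjusted p under 0.05, and 1 difference was positive and 1 negative. E2f1, the transcription factor that drives many S phase genes, had 52.4, 42.5 and 57.3 units in GP/AA/BMP-2 arrays at day 3, against 63.9, 59.0 and 67.1 units in GP arrays. Each treated array was below each GP array, and E2f1 was the 1 gene of the 40 with such a gap downward (background 9.58 percent of all tested probe sets). The difference of −0.33 ± 0.25 did not pass (limma adjusted p = 0.578), and its probe set carries a suffix for sequence shared within a family. A second probe set for E2f1 gave −0.032. Ccne1, cyclin E1, the activator of the kinase at the start of S phase, had 208, 180.3 and 141 units in GP/AA/BMP-2 arrays, against 175, 193 and 102 units in GP arrays. Its groups overlapped and the difference of 0.21 ± 0.25 did not pass (limma adjusted p = 0.767).

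**Figure D3:**
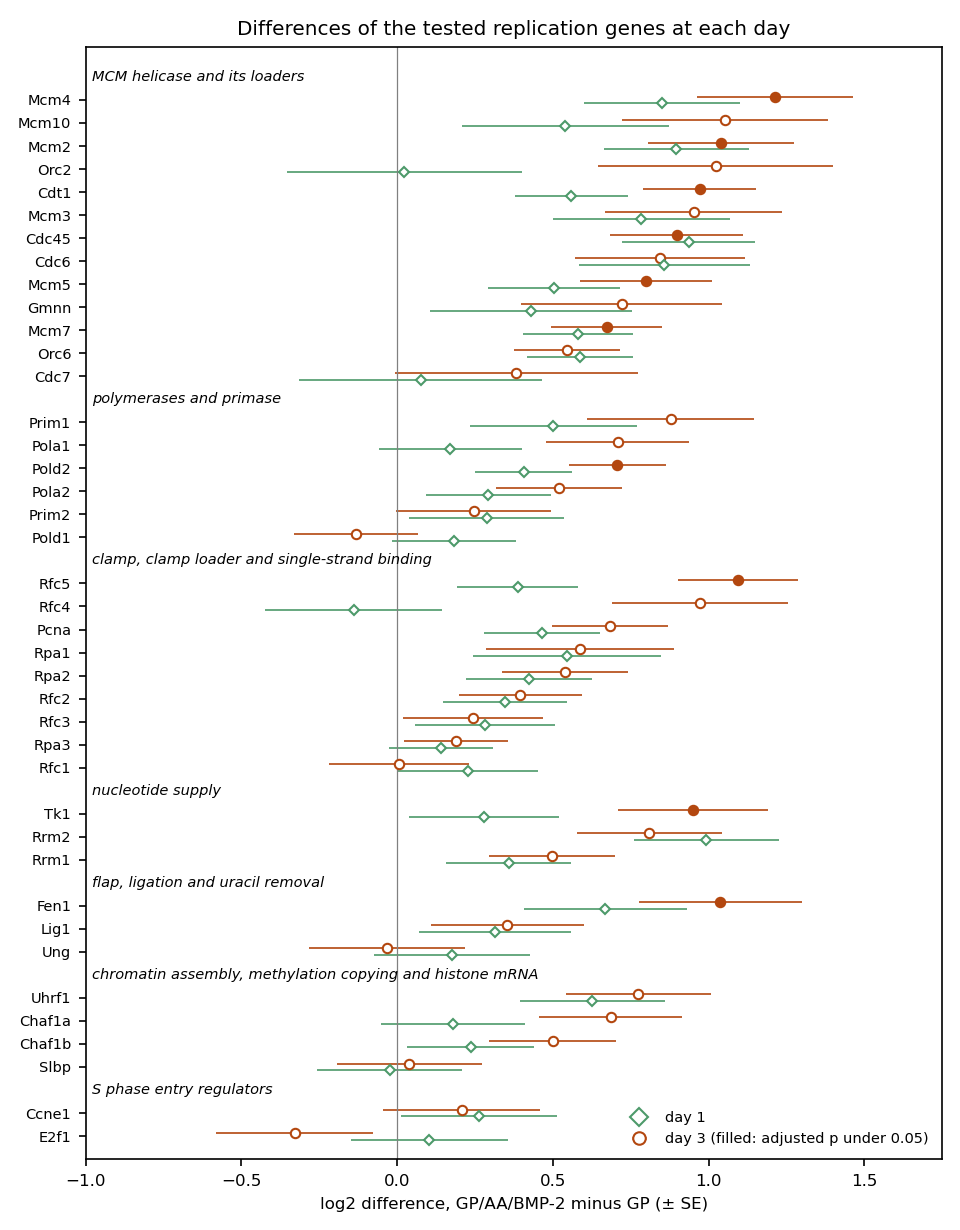
Log2 difference, GP/AA/BMP-2 minus GP, for each tested replication gene at day 1 (green diamonds) and day 3 (red-brown circles, filled where the limma adjusted p was under 0.05), with bars for ± 1 SE of the fit. Of the day 3 values 37 of 40 lie right of 0, and the 10 filled circles run from 0.67 to 1.21.

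The plot of differences by gene shows the day 3 values at or right of the day 1 values for 29 of the 40 genes. Over the whole set at day 3, 28 of the 40 genes had all 3 GP/AA/BMP-2 arrays above all 3 GP arrays, against 10.5 percent of all tested probe sets. In all 3 replicates 30 were higher (background 23.5 percent). The 12 that did not lie wholly above were Cdc7, Prim2, Pold1, Rfc1, Rfc3, Rpa1, Rpa3, Lig1, Ung, Slbp, Ccne1 and E2f1. An unadjusted p under 0.05 was reached by 27 of the 40 and by 1245 of the 7453 probe sets.

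Leaving out arrays lowered the number of day 3 calls. It was 3, 4 and 3 without GP/AA/BMP-2 replicates 1, 2 and 3, and 3, 2 and 8 without GP replicates 1, 2 and 3. It was 0, 0 and 9 without replicates 1, 2 and 3 of every group, and 19 with the block once GP day 3 replicate 3, whose actin ratio was high, was left out. With the block and without all replicate 3 arrays it was 11. Replicate 3 was the highest GP/AA/BMP-2 array at day 3 for 26 of the 40 genes (background 34.3 percent) and the highest GP array for 23 (background 33.6 percent). Cdt1 and Rfc5 were called in each of the 6 fits that left out 1 array of the comparison. Pold2 was called in 3 of these fits, Mcm4 and Cdc45 in 2, Mcm2 and Tk1 in 1, and Mcm5, Mcm7 and Fen1 in 0.

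A further 5 genes were on the array but under the signal filter of 22.3 units and were not tested: Mcm6, a ring subunit, Orc1, the large origin recognition subunit, Pole2, a subunit of polymerase epsilon, Dut, which removes dUTP, and Ccne2, cyclin E2. Their mean levels were 6.54 units for Mcm6, 20.6 for Orc1, 19.8 for Pole2, 17.99 for Dut and 8.11 for Ccne2. Pole2 read 30, 2.4 and 39.7 units in GP/AA/BMP-2 arrays at day 3, against 23.9, 3.2 and 28.8 units in GP arrays, so the spread within each group was larger than any gap between them. Of the 45 genes 13 had another probe set, 5 of them above the filter. At day 3 the other probe sets of Mcm3 and Cdt1 gave log2 differences of 1.00 and 0.82, on the same side as those used, while that of Pola2 gave −0.18 and that of Ung 0.47, on the other side from the 1 used. A dim second probe set of Rfc5, with a mean of 20.8 units, gave −0.19.

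Promoter sequences, from the RefSeq annotation of GRCm38.p6 (250 bases before to 50 bases after each start), were found for 41 of the 47 genes. They were searched on both strands for the 8-letter E2F-type words TTTCCCGC, TTTCGCGC, TTTGCCGC and TTTGGCGC. A gene was counted once, as having a word if any of its windows held one. At least 1 such word was found for 13 of the 41 genes (31.7 percent). It was found for 704 of all 27025 genes with a promoter (2.6 percent) and 284 of 6573 such genes on the array (4.32 percent). The 13 were Mcm3, Mcm5, Mcm6, Mcm7, Cdc6, Cdt1, Orc1, Pola1, Pold1, Pole2, Rfc3, Lig1 and Uhrf1. The word was found for 7 of 22 genes that passed at day 3 with the block (31.8 percent). It was found for 3 of 14 tested genes that did not (21.4 percent). Matches are a description of letters and not of binding. The CCAAT word, also searched on both strands, was found for 58.5 percent of the 41 genes, against 41.1 percent of all genes (42.5 percent for genes on the array). It was found for 72.7 percent of the 22 genes that passed and 42.9 percent of the 14 that did not. The GC box GGGCGG was found for 78.0 percent of the 41, against 38.2 percent (63.0 percent for genes on the array). For the 22 and the 14 genes its shares were 72.7 and 78.6 percent. Differences between the 22 and the 14 were not tested.

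Stretches of 5 of these promoters are shown, since they carry the word in genes with different responses at day 3: Mcm5, Mcm7 and Cdt1 rose, Uhrf1 passed only with the block, and Lig1 passed in neither fit. Each is written 5′ to 3′ on the gene's strand, with the E2F-type words in capitals. The 200 bases before the start are given for Mcm5 (chr8:75109309-75109508, plus strand), Mcm7 (chr5:138171884-138172083, minus strand) and Uhrf1 (chr17:56304113-56304312, plus strand, from the second of its 2 starts). Stretches of 30 bases after the start are given for Cdt1 (chr8:122568035-122568064, plus strand) and Lig1 (chr7:13278841-13278870, plus strand, from the second of its 3 starts).
Mcm5: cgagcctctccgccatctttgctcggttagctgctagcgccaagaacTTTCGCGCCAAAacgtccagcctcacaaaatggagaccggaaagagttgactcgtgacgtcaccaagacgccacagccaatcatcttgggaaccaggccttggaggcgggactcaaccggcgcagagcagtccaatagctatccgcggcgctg
Mcm7: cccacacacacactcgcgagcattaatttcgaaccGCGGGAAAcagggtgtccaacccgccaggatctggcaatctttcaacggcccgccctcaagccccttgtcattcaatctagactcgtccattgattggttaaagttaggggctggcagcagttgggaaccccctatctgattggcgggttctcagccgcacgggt
Uhrf1: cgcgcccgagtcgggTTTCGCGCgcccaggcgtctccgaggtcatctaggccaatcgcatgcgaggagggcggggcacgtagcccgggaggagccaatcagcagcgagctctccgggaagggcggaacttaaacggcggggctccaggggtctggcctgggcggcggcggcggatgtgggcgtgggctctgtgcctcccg
Cdt1: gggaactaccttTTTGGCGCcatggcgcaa
Lig1: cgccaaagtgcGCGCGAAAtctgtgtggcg
In Mcm5 a word on the gene's strand and one on the other strand share letters, so that a single run of capitals holds both. In Mcm7 the word shown lies on the other strand, and a second one lies after the start, outside the stretch printed. Cdt1 and Lig1 carry theirs after the start, at bases 33 to 40 and 27 to 34, so the word was found near genes that rose and near one that did not pass.

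At day 1 the median difference was smaller than at day 3 and 0 genes passed by limma, while 11 of the 40 genes had a larger difference at day 1. Of the 40 genes 38 had a positive log2 difference, 28 were higher in all 3 replicates (background 22.4 percent) and 15 had groups that did not overlap (background 8.44 percent). Of those 15, 10 belonged to the helicase and its loaders. Rrm2 had 406, 357 and 565 units in GP/AA/BMP-2 arrays at day 1, against 230.0, 157 and 288 units in GP arrays. It had the largest difference of the 40, with no overlap (log2 0.99 ± 0.23, limma adjusted p = 0.0616, or 0.00406 with the block). Cdc45 had 183, 181 and 284 units in GP/AA/BMP-2 arrays, against 118, 101 and 113 units in GP arrays. The treated replicate 3 array was far above the other treated arrays, which were themselves above all GP arrays (log2 0.94 ± 0.21, limma adjusted p = 0.0563, or 0.0163 with the block).

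Mcm2 had 379, 434 and 619.6 units in GP/AA/BMP-2 arrays at day 1, against 259.7, 199 and 307 units in GP arrays. Mcm7 had 468, 479.8 and 529 units in GP/AA/BMP-2 arrays, against 357, 338 and 294 units in GP arrays. Cdc6 had 152, 125 and 263 units in GP/AA/BMP-2 arrays, against 104, 71.9 and 113 units in GP arrays. In all 3 genes the lowest treated array was above the highest GP array, and in Mcm2 and Cdc6 the treated replicate 3 array stood well above the others. Mcm2 (0.90 ± 0.23), Mcm7 (0.58 ± 0.18) and Cdc6 (0.86 ± 0.27) completed the 5 genes that passed with the block, at limma adjusted p = 0.00954, 0.0360 and 0.0477. Without replicate 3, with the block, Rrm2 was the 1 gene that passed (limma adjusted p = 0.0361). Replicate 3 was the highest treated array at day 1 for 33 of the 40 genes, against 35.7 percent of all tested probe sets, and for 13 of the 40 in the GP arrays of the same day (background 37.9 percent).

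Rfc4, Slbp and Orc2 stood at the other end at day 1. Rfc4 had 53.2, 53.7 and 86.7 units in GP/AA/BMP-2 arrays, against 72.8, 60.3 and 75.4 units in GP arrays, a log2 difference of −0.14 ± 0.28. Its groups overlapped at day 1 and were apart at day 3. Slbp had −0.024 and Orc2 0.023, and none of the 3 passed.

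Whether the response differed between days was tested directly, as the day 3 difference minus the day 1 difference. No replication gene passed, with or without the block, and none of the tested probe sets did (0 percent of 7453), while 2 of the 40 had an unadjusted p under 0.05 (background 3.62 percent). The median over the 40 genes was 0.14. The 2 genes were both clamp loader subunits, Rfc4 at 1.11 ± 0.40 and Rfc5 at 0.71 ± 0.27 (limma adjusted p = 0.9998 for both). The larger number of calls at day 3 is therefore not a called difference between the days.

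The comparisons over time place these differences against the day 0 level. They share arrays with the treatment comparisons, so their values are given side by side and not as separate support. In GP cultures at day 1 the replication genes lay above day 0 for 38 of 40 genes, with a median log2 difference of 0.39. By limma 0 genes passed (background 0.242 percent higher and 0 percent lower), and 0 passed with the block (0.711 percent higher and 0.0134 percent lower), while 12 had an unadjusted p under 0.05 (background 3.46 percent), and 16 had groups that did not overlap (background 5.62 percent). Chaf1b had the smallest p of these, with 113, 93.9 and 99.3 units in GP day 1 arrays, against 60.5, 67.1 and 53.4 units at day 0. Its groups were well apart, yet the adjusted p was 0.300 by limma (log2 0.76 ± 0.20), or 0.0740 with the block.

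From GP day 1 to GP day 3 the direction was downward for 37 of 40 genes, with a median of −0.46. Tk1 was the 1 gene called, lower at day 3 (background 0.671 percent lower), with 255, 235 and 433 units in GP day 3 arrays, against 776, 702 and 596 units in GP day 1 arrays. Every day 3 array was below every day 1 array, and the difference was −1.21 ± 0.24 (limma adjusted p = 0.0309). It was lost when GP day 1 replicate 1, 2 or 3 or GP day 3 replicate 1 or 2 was left out. With the block Rfc4 (−0.91), Rfc5 (−0.87) and Rrm2 (−0.75) passed too, 4 in all against 1.41 percent of all probe sets. Rfc5 had 111, 115 and 115 units in GP day 3 arrays, against 235, 203 and 187 units in GP day 1 arrays, with no overlap. Of the 40, 33 were lower at day 3 in all 3 replicates (background 18.5 percent) and 22 had groups that did not overlap (background 6.02 percent).

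GP cultures at day 3 were close to day 0: the median log2 difference was −0.072, 14 genes were above and 26 below, and 0 passed in either fit (background 0 percent in each direction, and 0.0134 percent lower with the block). An unadjusted p under 0.05 was reached by 1 of the 40, Chaf1a at −0.53 (background 4.19 percent). Mcm4, for example, had 189, 199 and 196 units in GP day 3 arrays, against 206, 269.5 and 182 units at day 0, which overlap.

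GP/AA/BMP-2 cultures at day 3 were above day 0 for 38 of 40 genes, with a median of 0.63. By limma 6 genes passed, all higher (background 1.13 percent): Mcm2 (0.99), Mcm4 (1.06), Cdt1 (0.88), Pold2 (0.67), Rfc5 (0.84) and Uhrf1 (0.98). Uhrf1 had 461, 487 and 622 units in GP/AA/BMP-2 day 3 arrays, against 251, 287 and 251 units at day 0. Its groups were far apart (log2 0.98 ± 0.23, limma adjusted p = 0.0399). With the block 18 genes passed (background 5.65 percent), and in 24 the groups did not overlap (background 10.6 percent). The number of calls was 0, 5 and 0 without day 0 replicates 1, 2 and 3, and 2, 0 and 0 without GP/AA/BMP-2 day 3 replicates 1, 2 and 3. Without all replicate 3 arrays it was 1, or 4 with the block. At day 0, replicate 3 was the highest array for 11 of the 40 genes (background 36.5 percent).

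Between days 1 and 3 in GP/AA/BMP-2 cultures 34 of 40 genes were lower at day 3, with a median of −0.27, and 0 passed by limma (background 0.0939 percent higher and 0.0537 percent lower), while 5 had an unadjusted p under 0.05 (background 8.29 percent). Rrm2 had 198, 221 and 268 units in GP/AA/BMP-2 day 3 arrays, against 406, 357 and 565 units in GP/AA/BMP-2 day 1 arrays. All its day 3 arrays were below all its day 1 arrays (log2 −0.94 ± 0.23, limma adjusted p = 0.15, or 0.00747 with the block). Ccne1 also passed with the block, at −0.57 (0.0378), against 1.81 percent of all probe sets called lower. Pold2 and Cdt1 had differences of 0.00062 and 0.10 and did not pass. The map of all genes by array shows these time courses side by side, and Rrm2, Mcm2 and Cdc45 had the highest mean level over day 0 in the GP/AA/BMP-2 day 1 arrays.

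**Figure D4:**
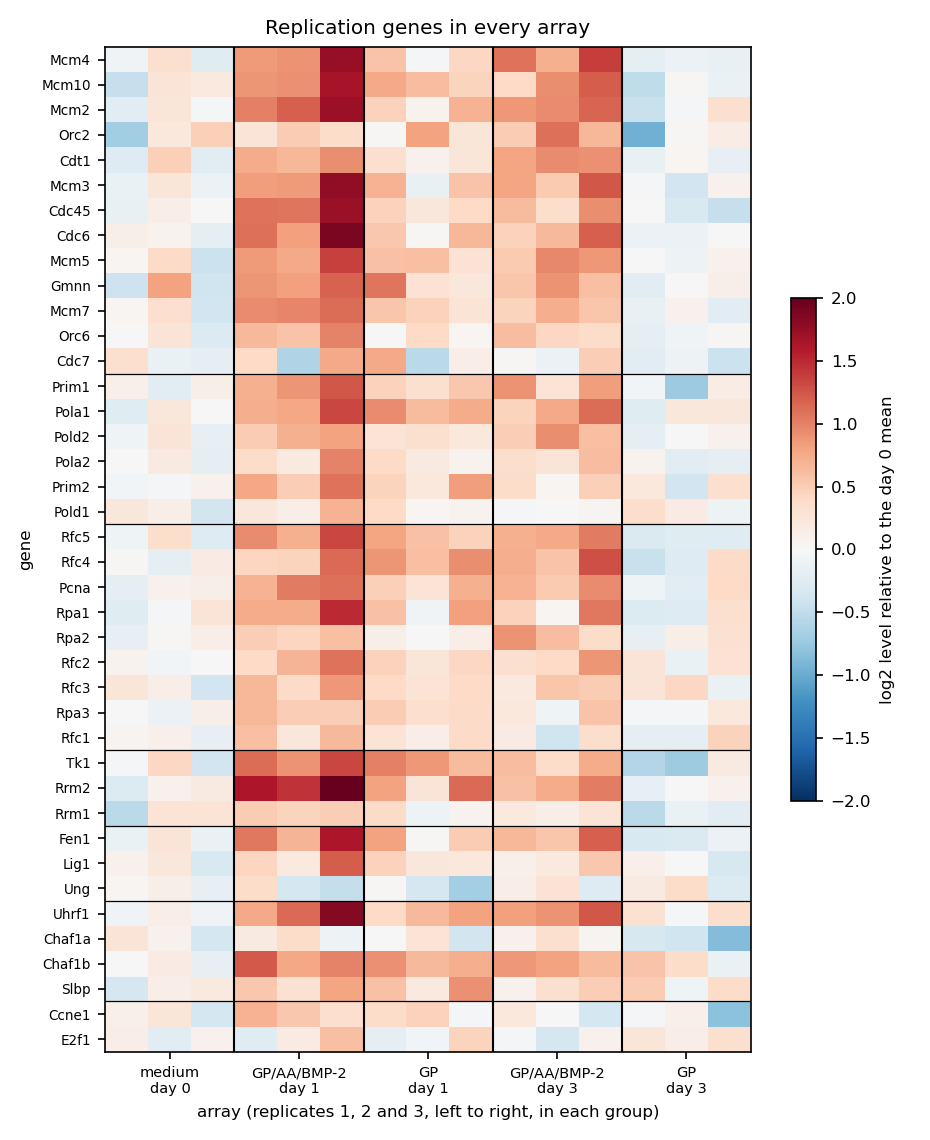
Log2 level of each tested replication gene in each of the 15 arrays relative to its day 0 mean, on a colour scale from −2 (blue) to 2 (red), with genes grouped by role and replicates 1 to 3 from left to right in each group. The GP/AA/BMP-2 columns at days 1 and 3 are mostly red, the GP columns mostly paler at day 1 and near white at day 3. Genes that do not follow that pattern include E2f1, Ung and Chaf1a. Others are Rfc4 and Slbp at day 1, and Ccne1, Pold1 and Rfc1 at day 3.

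Neighbouring functions, also listed with earlier results of these data known, gave the wider setting. Genes outside the 47 were read the same way, in 4 lists: other fork and origin genes (17 tested of 34 listed), nucleotide synthesis (23 of 35), E2F, RB and CDK regulators (21 of 30), and repair at the fork with histone chaperones (16 of 28). At day 3, 7 of these 77 genes rose and 0 fell (background 2.03 percent higher), with a median of 0.30, and 17 were higher and 1 lower with the block (background 6.84 percent higher and 6.99 percent lower). At day 1, 0 passed by limma, 11 of the 77 had an unadjusted p under 0.05 (background 11.3 percent), and 1 was higher and 1 lower with the block (background 2.07 percent higher and 2.92 percent lower), so these day 1 counts were close to or below the background.

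Of the 17 other fork and origin genes 0 passed at day 3 by limma, 3 had an unadjusted p under 0.05, about the background of 16.7 percent, and the median was 0.21. Top2a, the topoisomerase of dividing cells, was the 1 gene of the 17 that passed with the block, close to the background of 6.84 percent higher. Top2a averaged 245 units in GP/AA/BMP-2 cultures, against 139 units in GP cultures (log2 0.84 ± 0.28, limma adjusted p = 0.112, or 0.0140 with the block). Timeless, a fork protection factor, had 0.62 ± 0.23, Topbp1, an activator of the helicase and of checkpoint signalling, 0.92 ± 0.36, and Pole3, a small subunit of polymerase epsilon, 0.35 ± 0.16, and these 3 passed in neither fit.

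In nucleotide synthesis 2 of 23 rose (background 2.03 percent) and 4 passed with the block (background 6.84 percent higher). The median was 0.27. Hprt, the purine salvage enzyme, averaged 573 units in GP/AA/BMP-2 cultures, against 374 units in GP cultures (log2 0.62 ± 0.13, limma adjusted p = 0.0174). Impdh1, which makes guanine nucleotide precursors, averaged 178 units in GP/AA/BMP-2 cultures, against 92.4 units in GP cultures (log2 1.00 ± 0.26, limma adjusted p = 0.0447). Both enzymes serve purine supply, and neither is specific to S phase. Nme2, a nucleoside diphosphate kinase, at 0.60 ± 0.17, and Dck, deoxycytidine kinase, at 0.62 ± 0.18, passed only with the block.

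Among E2F, RB and CDK regulators 2 of 21 rose (background 2.03 percent), with a median of 0.39. With the block 7 were higher and 1 lower (background 6.84 percent higher and 6.99 percent lower). Cks2, a small partner of cyclin-dependent kinases, averaged 540.2 units in GP/AA/BMP-2 cultures, against 271 units in GP cultures (log2 1.00 ± 0.16, limma adjusted p = 0.00392). Cdkn2d, an inhibitor of the cyclin D kinases, averaged 279 units in GP/AA/BMP-2 cultures, against 169.7 units in GP cultures (log2 0.72 ± 0.17, limma adjusted p = 0.0319). Both a kinase partner and an inhibitor in this list were therefore higher in GP/AA/BMP-2 than in GP cultures at day 3. Chek1, the checkpoint kinase of S phase, at 0.61 ± 0.17, and Ccna2, cyclin A2, at 0.72 ± 0.21, passed only with the block, and the 1 gene lower with the block was Cdkn2c, another inhibitor of that family, at −0.41 ± 0.13 (named after its values were seen).

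In repair at the fork and histone chaperones 3 of 16 rose (background 2.03 percent) and 5 passed with the block (background 6.84 percent higher). The median was 0.49. H2ax, the histone variant phosphorylated at DNA breaks, averaged 648 units in GP/AA/BMP-2 cultures, against 410.0 units in GP cultures (log2 0.66 ± 0.15, limma adjusted p = 0.0267). Asf1b, a histone chaperone of dividing cells, averaged 103 units in GP/AA/BMP-2 cultures, against 45.1 units in GP cultures (log2 1.21 ± 0.29, limma adjusted p = 0.0318). H2az1, another histone variant, averaged 882 units in GP/AA/BMP-2 cultures, against 523 units in GP cultures (log2 0.74 ± 0.18, limma adjusted p = 0.0327). All 3 are histones or handle histones, but other genes of this list that handle histones passed in neither fit. Among these were Nasp (log2 0.73), Hat1 (0.27), Asf1a (0.023), Rbbp7 (0.0085) and Rbbp4 (−0.14), named after their values were seen. Brca1, a repair factor, had 1.44 ± 0.40 and passed only with the block.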

How the data were processed

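Total RNA of 15 MC3T3 samples was measured on single-colour oligonucleotide arrays, in 5 groups of 3. The values that the authors deposited are linear intensities per probe set. Their software is not given in the sources used here. Detection calls were not used. Each array's mean between the 2nd and 98th percentiles lay between 149.1 and 150.0 units, which is what scaling to a shared trimmed mean before deposit would leave.

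The 66 control probe sets were left out. Values under 2.8, the 10th percentile, were set to 2.8 and log2 was taken, and probe sets with a mean under 22.3, the 40th percentile, were not tested, which left 7453. Genes were named only from probe sets with 1 symbol in the platform annotation (10833, against 396 with several and 1193 with none), using the probe set with the highest mean log2 signal. The probe sets of Mcm3, Pold2, Ung and E2f1 carry suffixes for shared sequence or relaxed probe design, and other transcripts may contribute to their signal. Levels are never compared between probe sets.

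All 15 arrays entered 1 fit with 1 coefficient per group (lmFit, then eBayes with a trend on the mean, from limma 3.58.1 under R 4.3.3; 10 residual degrees of freedom), with Benjamini-Hochberg adjustment over all 7453 and a threshold of 0.05. A called gene is one with an adjusted p under that threshold. The fit was tested on simulated data with known changes. Those data were drawn without a replicate effect, so that test cannot speak to the pairing by replicate in these arrays. Groups that do not overlap are those in which every array of one group is above every array of the other. The replicate number comes from the preparation number in the labels: deviations from group means correlated at 0.190 to 0.703 between samples of the same number in every comparison, so a fit with the replicate as a block was run beside it. The alternatives were other floors, filters, scalings, array weights, no trend, only the compared groups, the mean over probe sets and arrays left out.

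The members and gene lists were chosen with earlier results of these data known. Genes given array by array are those called between treatments, or those with the largest day 3 difference until each role had 2. A few more (Pcna, Pole2, Chaf1b, Cdc6) are given so after their values were seen. Named genes of the other lists are the up to 4 with the smallest day 3 p. Those marked as named after their values were seen are exceptions. The number of arrays limits the precision.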

Additional observations from a re-analysis of the deposited data

How the results depend on the processing

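The count of replication genes called (adjusted p under 0.05 by limma) at day 3 between treatments was 10 and kept its direction under every alternative that gave a call. With the replicate block it was 23, with array weights 18, without the signal filter 6, without the trend 6, with median scaling 3 and with only the compared groups 3. Leaving out 1 array or 1 replicate gave 0 to 9. The block gave 19 without GP day 3 replicate 3 and 11 without replicate 3, both chosen after seeing the data. At day 1 the count was 0, and it was 5 with the replicate block, 3 with array weights, 2 with the filter at the 60th percentile, 1 with quantile normalization, 1 with the mean over probe sets, 0 to 1 with arrays or replicates left out, and 1 with the block and without replicate 3. For GP day 3 against GP day 1 it was 1, and 4 with the replicate block, 3 with array weights, 2 with the filter at the 60th percentile, 2 with the block and without GP day 3 replicate 3, 0 without the filter, without the trend, with median scaling, with the compared groups alone or with the mean over probe sets, and 0 to 2 with arrays or replicates left out. For GP/AA/BMP-2 day 3 against day 0 it was 6, and 18 with the replicate block, 9 with array weights, 3 without the filter, 2 with median scaling, 2 without the trend, 0 with the compared groups alone, 0 to 5 with arrays or replicates left out, and 4 with the block and without replicate 3. For GP/AA/BMP-2 day 3 against day 1 it was 0, and 2 with the replicate block. The block changed no other count of calls: GP at day 1 and day 3 against day 0, and the difference between days, stayed at 0 in every fit run. The cause of these changes was not tested, beyond the fewer samples or probe sets that some settings use by construction.

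Small log2 differences changed sign, all of genes that did not pass. At day 1, Orc2 (0.023) was −0.056 with the floor at the 50th percentile, Slbp (−0.024) was 0.013 with median scaling, and Cdc7 (0.075) was −0.17 with array weights. At day 3, Ung (−0.034) was 0.018 with median scaling and 0.22 with the mean over probe sets. With arrays or replicates left out, the day 1 ranges were −0.14 to 0.25 for Orc2, −0.26 to 0.47 for Cdc7, −0.040 to 0.37 for Pola1, −0.11 to 0.31 for E2f1, −0.084 to 0.35 for Ung, −0.21 to 0.15 for Slbp, −0.37 to 0.017 for Rfc4, −0.020 to 0.46 for Pola2, −0.035 to 0.36 for Pold1 and −0.027 to 0.52 for Lig1. The day 3 ranges were −0.16 to 0.23 for Rfc1, −0.22 to 0.12 for Ung, −0.14 to 0.27 for Slbp and −0.077 to 0.38 for Ccne1. With the block and without replicate 3 the day 1 values were −0.028 for Orc2, −0.20 for Cdc7, −0.040 for Pola1, −0.020 for Pola2, −0.035 for Pold1, −0.027 for Lig1 and 0.028 for Slbp, and Slbp at day 3 was −0.0083, or −0.034 with the block and without GP day 3 replicate 3.

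The median log2 difference over the replication genes was 0.37 at day 1, and 0.21 without replicate 3. At day 3 it was 0.68, and 0.54 with the floor at the 50th percentile, a setting that by construction puts dim values at the floor. That floor moved 5 of the 40 day 3 differences by over 1.5 times, those of Mcm10, Orc2, Prim1, Rfc4 and Cdc7 (0.38, or 0.010), and it left Mcm5 and Fen1 just outside the threshold (limma adjusted p = 0.0505 for both). At day 1 it moved Mcm10 (0.54, or 0.21) and Cdc7. Array weights moved more by over 1.5 times without a change of sign, 9 at day 3 and 11 at day 1. Among them was Rfc3 at day 3 (0.24, or 0.016). The mean over probe sets moved 5 at day 3 and 7 at day 1 to that extent. The mean over probe sets ended the calls of Rfc5 and Mcm5 (limma adjusted p = 0.401).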
